A study of Oryza sativa Japonica Group with 6 samples.

Results

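The 3 arrays labelled Line13 were compared with each other to see how far pools of one transgenic rice line differ. They were taken by their labels alone, as 3 of the 6 arrays of the series. Line 13 is described by the submitters as a Nipponbare line that overexpresses linalool synthase. By the labels, the plants of all 3 pools carried that transgene, were untreated, were grown at 25 °C, and had reached the stage of 4 leaves. RNA came from leaf blades, and each replicate pooled at least 3 plants. Line 13 is 1 transgenic line, and the promoter that drives the transgene was not given in the sources used. No wild-type array was used.

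Linalool synthase turns geranyl diphosphate into linalool, a volatile monoterpene alcohol. Rice leaves also make diterpene phytoalexins, antimicrobial compounds such as momilactones and phytocassanes, and pathogenesis-related proteins such as chitinases. Class I KNOX homeobox genes keep cells of the shoot apex undetermined and are normally silent in a leaf blade. The level of each such group in a pooled leaf sample may therefore reflect the state of the cells, which tissue was taken, or both. In these bulk samples, fewer cells of a type and less RNA per cell cannot be told apart.

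Values are log2 signals relative to the 75th percentile of the array, so 0 is that percentile and 1 unit is 2-fold. A locus was kept when its probe was well above background on at least 2 of the 3 arrays, which left 23354 of 28855 loci. An array was called apart on a locus when it was at least 2-fold above both others, or at least 2-fold below both. The other two arrays also had to lie nearer to each other than either lay to it. There was always 1 array on a side, so no difference below has a replicate check and no p-value is given. Within an array, probes printed at least 3 times had a median SD of 0.06 to 0.07 between their spots (28 to 31 probes per array), which covers spot-to-spot error only. All 3 arrays lay on 1 slide and shared 1 scan time.

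Linalool synthase was higher on replicate 3 than on either other array. Os02g0121700 had -3.65 on replicate 3, against -6.52 and -5.84 on replicates 1 and 2. It was apart, and was not well above background on replicate 1. This locus has 1 probe, and the sources used do not say if it reads the transgene. A probe outside the added sequence would check nothing about the transgene. The signal was dim on all 3 arrays: 5.16%, 5.42% and 23.2% of the kept loci were dimmer on replicates 1, 2 and 3. Of the upstream genes of the plastid isoprenoid pathway, DXS2 had -2.12 on replicate 3, against -2.72 and -3.02, and HDR had 3.17, against 2.91 and 3.01. DXR had 1.71 on replicate 3, against 0.86 and 1.46. DXS1 had 0.52 on replicate 3, against 0.95 and 0.42, and HDS was even. None of these was apart.

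Replicate 1 was the array that stood apart most often. It was higher than both others on 1547 loci (6.62% of those kept) and lower than both on 3384 (14.5%). Under normexp background correction the balance turned, with 3661 higher and 957 lower. At a 4-fold limit the counts were 112 (0.48%) and 995 (4.26%). Replicate 3 was higher than both others on 430 loci (1.84%) and lower on 138 (0.591%), and at 4-fold on 50 (0.214%) and 27 (0.116%). Replicate 2 was higher than both others on 134 loci (0.574%) and lower on 170 (0.728%), and at 4-fold on 28 (0.12%) and 30 (0.128%). Of the variation between the 3 arrays, taken as the sum of squares over all loci, 84.5% lay between replicate 1 and the mean of the other two, and 15.5% lay between replicates 2 and 3. The median absolute difference was 0.58 between replicates 1 and 2, 0.74 between replicates 1 and 3, and 0.26 between replicates 2 and 3. Replicate 2 was usually the middle value. The order from highest to lowest was replicate 1, 2, 3 on 33.6% of loci and replicate 3, 2, 1 on 28.6%.

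**Figure D1:**
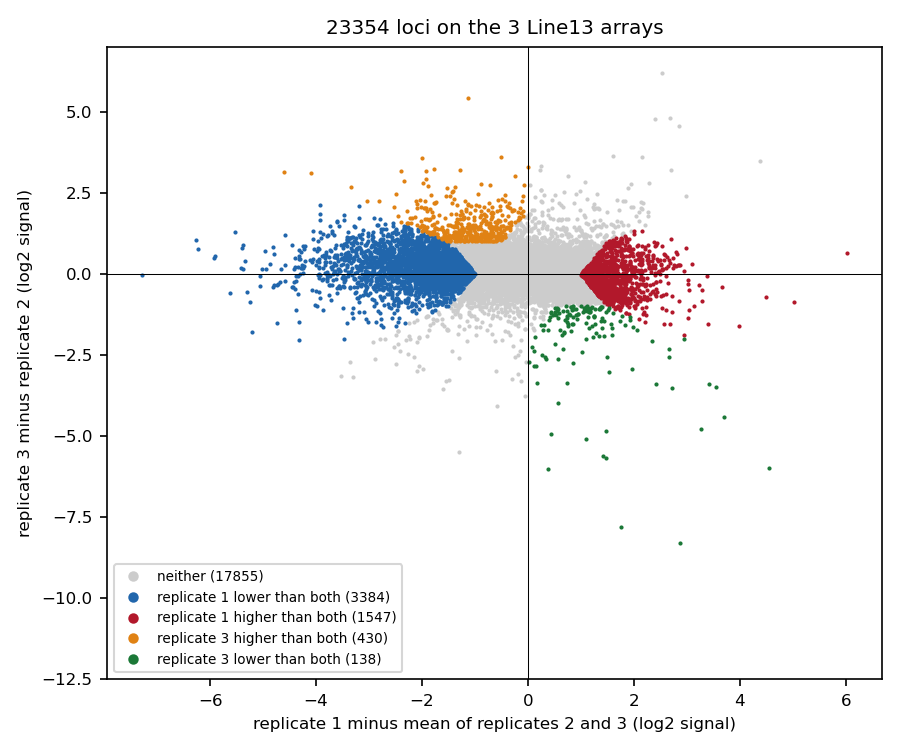
Each point is 1 of 23354 loci, with replicate 1 minus the mean of replicates 2 and 3 on the x axis and replicate 3 minus replicate 2 on the y axis, both as log2 signal. Blue marks the 3384 loci lower on replicate 1, red the 1547 higher on it, orange the 430 higher on replicate 3 and green the 138 lower on it. The cloud is wider along x than along y.

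Several features of the arrays moved with replicate 1, and their part in the results was not tested. The 75th percentile of the unscaled signal was 325.5 on replicate 1, 1559 on replicate 2 and 932 on replicate 3. The share of spots well above background was 72.3% on replicate 1, 85.5% on replicate 2 and 81.2% on replicate 3. The 7 spike-in controls measured on all arrays went the other way. They were 0.42 to 0.61 log2 units brighter on replicate 1 than on the mean of the other two. Scaling to the spike-ins would lower every replicate 1 difference by 2.42 units, so each direction given below is relative to the 75th percentile. Of the 3384 loci lower on replicate 1, 1249 were not well above background there. A fold for such a locus is given as a bound. Probes well above background on 1 array alone, which did not pass, numbered 46 for replicate 1, 1826 for replicate 2 and 125 for replicate 3.

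Dim loci stood apart more often than bright ones. In the dimmest of 5 equal classes of mean signal, 1145 of 4671 loci were lower on replicate 1 and 421 were higher. In the brightest class, 436 of 4671 were lower and 220 were higher. The array's probe names carry a region tag, whose exact meaning was not stated. Of loci read by a probe tagged CDS, 29.5% of 78 were lower on replicate 1, against 12.5% of 16752 loci read by a probe tagged as coding sequence plus 3′ UTR. Of 231 loci read by a probe tagged 5′ UTR plus CDS, 17.7% were higher on replicate 1 and 18.2% lower, against 5.77% higher for the coding sequence plus 3′ UTR tag. On 385 loci with probes of both kinds, the signal of the probe tagged 5′ UTR plus CDS minus that of the one tagged CDS plus 3′ UTR had a median of -2.68 on replicate 1, -1.90 on replicate 2 and -1.62 on replicate 3. It was lowest on replicate 1 for 250 of the 385. The submitters checked RNA integrity, but its values were not given. Over 16 blocks of the array surface the median replicate 1 difference ran from 0.08 to 0.17.

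**Figure D2:**
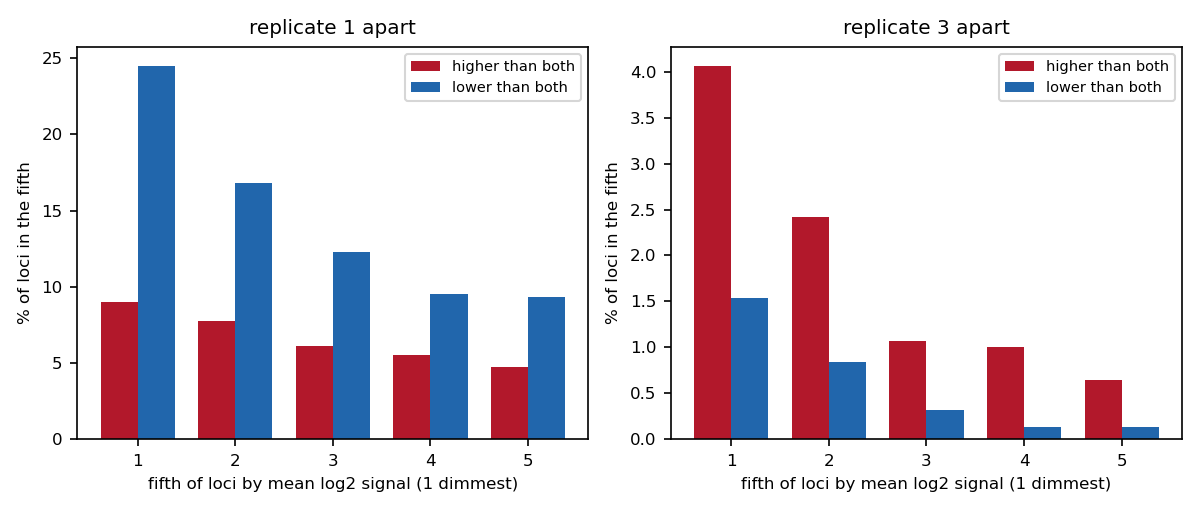
Bars give the percentage of loci in each of 5 equal classes of mean log2 signal (x axis, 1 dimmest) on which replicate 1 (left panel) or replicate 3 (right panel) was at least 2-fold higher (red) or lower (blue) than both other arrays. For both arrays the bars are tallest in the dimmest class, where 1145 of 4671 loci were lower on replicate 1.

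Second probes for the same locus mostly went the same way. Of loci lower on replicate 1 with a second measured probe, 848 of 890 had that probe lower too, and 691 met the same limit, which is 77.6% against 15.8% of all second probes. For loci higher on replicate 1, 315 of 357 second probes were higher and 200 met the limit. For loci lower on replicate 3, 26 of 26 second probes were lower and 22 met the limit.

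The genes of pathogenesis-related proteins were the list with the lowest median on replicate 1 among those with more than 1 measured member. Replicate 1 was apart and lower on 8 of the 11, against 14.5% of all loci, and the median difference was -2.14, against 0.07 over all loci. Chitinases cut the chitin of fungal walls. The class I chitinase gene Cht1 had -0.32 on replicate 1, against 2.2 and 3.2 on replicates 2 and 3, a difference of -3.02. Cht8 had -1.55 on replicate 1, against 0.97 and 1.26, and Cht3 had -3.28, against -1.43 and -0.52. The order was the same on all 3 chitinase genes, with replicate 1 well below the pair. PR4, a chitin-binding protein, had 1.28 on replicate 1, against 3.15 and 3.68. JIOsPR10, named for its induction by jasmonate, had -0.56 on replicate 1, against 1.34 and 1.94. A beta-1,3-glucanase gene had -0.54 on replicate 1, against 1.32 and 1.89. All 11 genes were well above background on all 3 arrays. On 9 of the 11 the order from highest to lowest was replicate 3, 2, 1, against 28.6% of all loci.

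Heat shock chaperones were lower on replicate 1 on 9 of 18 measured genes, against 14.5% of all loci, and higher on none, with a median difference of -1.27. That median was -0.11 under normexp background correction, an alternative that adds an offset of 50 to every signal. Small heat shock proteins bind unfolding proteins, and HSP70 refolds them. The small heat shock protein gene Os02g0758000 had -1.22 on replicate 1, against 2.13 and 2.09. The HSP70 gene Os01g0840100 had 0.33 on replicate 1, against 3.09 and 2.21. HSP16.9C had -3.83 on replicate 1, against -1.63 and -2.09. A class I small heat shock protein, Os03g0266900, had -3.01 on replicate 1, against -0.82 and -1.16. Replicates 2 and 3 lay within 1 unit of each other on each of these genes. Os06g0253100 and the HSP70 gene Os05g0460000 were not well above background on replicate 1, and were at least 6.22-fold and at least 4.92-fold lower there. The other 9 genes were not apart on replicate 1, and 5 of the 18 had a positive difference. The HSP90 gene Os08g0500700 had 4.19 on replicate 1, against 4.95 and 4.57, while the HSP90 gene Os09g0482600 had 5.86, against 5.26 and 4.94. Both were named after their values were seen.

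Photosynthesis genes, which mark green leaf tissue, were well above background on all 3 arrays and lower on replicate 1. Every one of 24 photosystem antenna and subunit genes had a negative difference. On 8 of the 24 replicate 1 was apart, against 14.5% of all loci, and the median was -0.82. An Lhcb1 gene, Os01g0720500, which encodes a chlorophyll-binding antenna protein, had 3.4 on replicate 1, against 6.26 and 5.53. The 2 other Lhcb1 genes differed less, and Os09g0346500 had 6.72 on replicate 1, against 7.31 and 7.36. Near-identical family members can share probe signal, so single Lhcb1 and rubisco genes are uncertain. PsaN, a photosystem I subunit, had 3.49 on replicate 1, against 5.46 and 5.24. PsaG had 3.87 on replicate 1, against 5.54 and 5.48, and PsaF had 3.69, against 5.21 and 5.11. Lhcb2 had 5.37 on replicate 1, against 6.88 and 6.69.

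Calvin cycle genes, which fix carbon dioxide, were lower on replicate 1 on 5 of 10, against 14.5% of all loci, with a median of -1.08 and a negative difference on all 10. Phosphoribulokinase, which remakes the substrate of rubisco, had 2.82 on replicate 1, against 4.57 and 4.51. The rubisco small subunit gene Os12g0291100 had 5.73 on replicate 1, against 7.54 and 7.76. GAPA, a plastid glyceraldehyde phosphate dehydrogenase, had 4.24 on replicate 1, against 5.65 and 5.34. Replicates 2 and 3 lay close together on each of these genes, and replicate 1 lay more than 1 unit below both.

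Nitrate assimilation genes were also lower on replicate 1. Nitrate reductase and nitrite reductase turn nitrate into ammonium. NIA1, a nitrate reductase gene, had 0.40 on replicate 1, against 2.67 and 3.45. NIA2 had -2.55 on replicate 1, against -1.42 and -0.50. The nitrite reductase gene NIR1 had 2.71 on replicate 1, against 4.28 and 5.15. The ammonium transporter gene AMT1;1 had -1.07 on replicate 1, against 0.34 and 0.41. These 4 were the ones apart among 12 measured, and all 4 were lower, against 14.5% of all loci. Glutamine synthetase and glutamate synthase genes, which use the ammonium, were not apart, and Fd-GOGAT had 3.68 on replicate 1, against 4.35 and 4.38. The median of the list was -0.35.

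Glutathione S-transferases of the tau class detoxify foreign compounds, and many rice members lie in a row on chromosome 10. The interval from Os10g0527400 to Os10g0530900 was looked at after its values had been seen, and its loci were not checked against an annotation. Of 20 measured loci in it, 15 were lower on replicate 1 and 1 was higher, against 14.5% and 6.62% of all loci. Their median was -1.89. Os10g0528200 had -4.35 on replicate 1, against -0.35 and 0.55. Os10g0530500 had 0.38 on replicate 1, against 3.26 and 2.78, and Os10g0530900 had -0.18, against 1.93 and 2.14. The exception, Os10g0530300, had -1.61 on replicate 1, against -4.04 and -2.87. On 6 of the 20 loci replicate 1 was not well above background. Across all measured loci in order along the chromosomes, 35.3% of those lower on replicate 1 had a neighbour that was lower too, against 26.5% of all loci.

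Single members of other lists were lower on replicate 1. The water channel gene PIP2;7 had 0.47 on replicate 1, against 4.40 and 3.19, and PIP1;3 and PIP2;2 were apart as well, which made 3 of 9 aquaporins lower, against 14.5% of all loci, and none higher. The wall-loosening expansin gene EXPA2 had -0.38 on replicate 1, against 2.31 and 2.55, and EXPB3 had 1.49, against 3.02 and 3.19. EXPA5, of the same family, went the other way with 2.92 on replicate 1, against 1.73 and 1.34. CESA7, a cellulose synthase of secondary walls, had -1.55 on replicate 1, against 0.91 and 0.42. The catalase genes CATA and CATC, whose products break down hydrogen peroxide, had 3.55 on replicate 1, against 5.34 and 5.43, and 2.99, against 4.24 and 4.43. These were 2 of 10 antioxidant genes, against 14.5% of all loci lower, and the other 8 were not apart. SALT, a lectin gene induced by salt, had 0.67 on replicate 1, against 3.26 and 3.06. The haemoglobin gene Hb1 had -1.43 on replicate 1, against 0.98 and 0.89. SGR, which starts chlorophyll breakdown, had -2.55 on replicate 1, against -1.06 and -0.54. The iron transporter gene IRT1 was not well above background on replicate 1 and was at least 4.53-fold lower there, with -6.06, against -4.17 and -3.59. Of 10 circadian clock genes, 1 was apart, against 14.5% of all loci lower. That gene, LUX, had 0.37 on replicate 1, against 1.66 and 2.0. LHY, the morning clock gene, had 1.63 on replicate 1, against 1.92 and 1.95. None of 16 jasmonate genes was apart on replicate 1, against 14.5% of all loci lower and 6.62% higher. Their median was -0.11, which was 0.05 under array median scaling.

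Other groups lay higher on replicate 1 under the scaling used, and below the mean of replicates 2 and 3 under spike-in scaling. Cell division and DNA replication genes had a positive difference on all 12 measured, with a median of 0.88 and a spike-in median of -1.54. Only MCM3 was apart, 1 of 12, against 6.62% of all loci higher on replicate 1. MCM3 is a subunit of the helicase that opens DNA for copying. It had 1.1 on replicate 1, against -0.11 and -0.91. MCM7 had -0.06 on replicate 1, against -0.93 and -1.69, and MCM6 had 0.38, against -0.51 and -1.09. The order replicate 1, 2, 3 held on all 12 genes, against 33.6% of all loci. The list of meristem and leaf growth regulators, 4 of whose 8 measured members are KNOX genes, had a median of 1.06, which was -1.36 under spike-in scaling. Against replicate 2 alone that median was 0.32, and against replicate 3 alone it was 1.84. On OSH1, OSH15 and OSH71 replicate 2 was the highest array. Of the 8, 1 was apart, against 6.62% of all loci higher. That gene, GRF1, a transcription factor of leaf growth, had -0.14 on replicate 1, against -1.34 and -1.83. Housekeeping genes also lay higher, with a median of 0.65 (-1.77 under spike-in scaling) and none of 9 apart, against 6.62% of all loci higher. The elongation factor 1-alpha gene had 7.67 on replicate 1, against 6.76 and 6.91, and UBQ5 had 5.90, against 5.02 and 4.65. UBQ10 went the other way, with 5.07 on replicate 1, against 5.53 and 6.15.

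**Figure D3:**
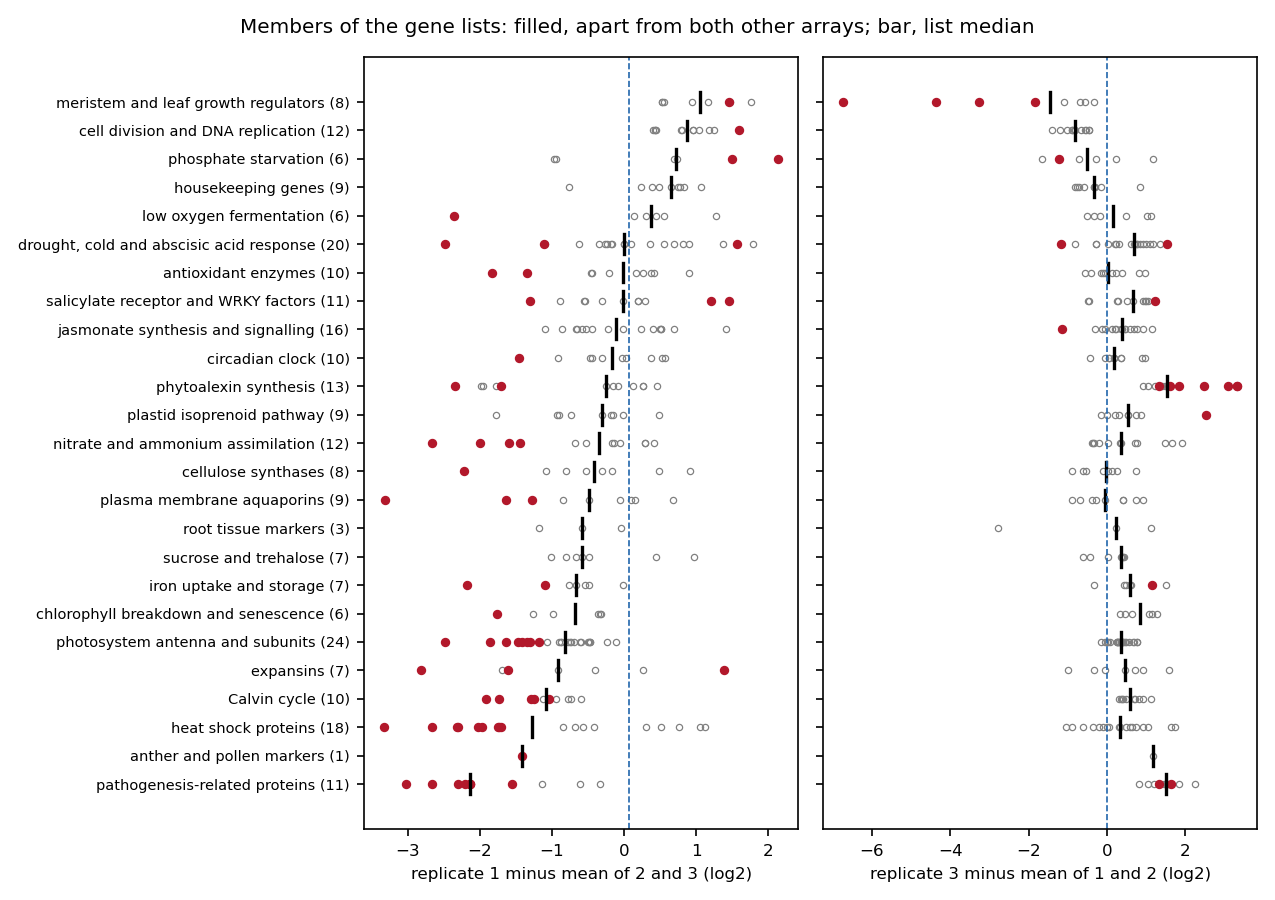
Each circle is a measured member of a gene list (count in brackets), with replicate 1 minus the mean of replicates 2 and 3 on the left and replicate 3 minus the mean of replicates 1 and 2 on the right, as log2 signal at the 75th percentile scaling. Filled circles are members apart from both other arrays, bars are list medians and the dashed line is the median of all loci. Pathogenesis-related genes have the median -2.14 on the left and growth regulators -1.46 on the right. Under spike-in scaling all list medians on the left lie below 0.

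Phosphate starvation genes held 2 members apart of 6 measured, both higher on replicate 1, against 6.62% of all loci. IPS1 is a non-coding RNA that binds the microRNA miR399, and miR399 in turn targets the transcript of PHO2, which limits phosphate uptake. IPS1 had -0.03 on replicate 1, against -1.78 and -2.55. SPX2, a phosphate sensor gene, had -2.93 on replicate 1, against -4.44 and -4.41. SPX1 was not apart, with 0.15 on replicate 1, against -0.58 and -0.49. PHO2 lay the other way without reaching the limit, with -0.48 on replicate 1, against 0.63 and 0.29. The phosphate transporter gene PT2 had -2.34 on replicate 1, against -1.83 and -0.90. The other 4 of 6 were not apart on replicate 1, and the list had a median of 0.71, which was -1.71 under spike-in scaling.

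The miR399 probes, named here after their values were seen, lay on the same side as IPS1. The labelling kit copies from poly(A) tails, so these probes read polyadenylated transcripts and not the mature small RNA. Of 10 measured miR399 probes, 6 were higher on replicate 1 and none lower, against 52 of 173 higher over all microRNA probes measured. The probe named osa-miR399f Mature had -1.34 on replicate 1, against -3.70 and -3.42. The probe osa-miR399g Mature had -1.56 on replicate 1, against -3.95 and -3.72. Members of a microRNA family share much of their sequence, so these probes are not independent. The family median was 1.87 at the 75th percentile scaling and -0.55 under spike-in scaling.

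**Figure D4:**
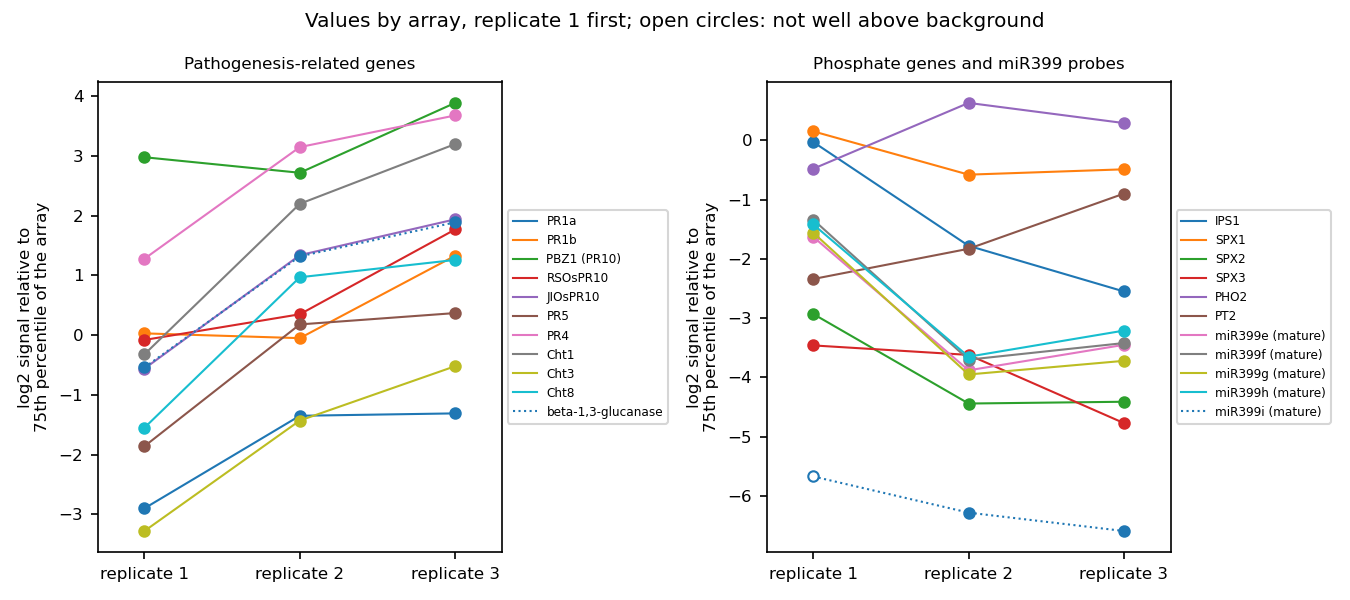
Log2 signal relative to the 75th percentile (y axis) is joined by gene across the 3 arrays, with replicate 1 on the left of each panel. Filled circles are well above background and open circles are not. The pathogenesis-related genes lie lowest on replicate 1 on 9 of 11. IPS1 and the miR399e to miR399h probes lie highest on replicate 1 at this scaling. Under spike-in scaling they lie below the mean of replicates 2 and 3 there.

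Among all 173 measured microRNA probes of 510 on the array, 52 were higher on replicate 1 and 21 were lower, against 6.62% and 14.5% of loci. The largest differences fell in 2 families. All 14 measured miR439 probes were higher on replicate 1, with a median of 2.82, which was 0.40 under spike-in scaling. The probe osa-miR439c 3′seq had -3.81 on replicate 1, against -6.50 and -7.73. Most of these probes carry the same transcript name, Os01t0540800, and so are not independent. Of 28 measured miR169 probes, 13 were lower on replicate 1 and 1 was higher. The miR169 family targets NF-YA transcription factor transcripts. The probe osa-miR169i 5′seq had -6.52 on replicate 1, against -3.33 and -2.84. On 20 of the 28 miR169 probes replicate 1 was not well above background.

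Defence and stress regulators were mixed on replicate 1. WRKY62 and WRKY76, neighbouring genes for repressors of defence in rice, had -2.47 on replicate 1, against -4.12 and -3.74, and -0.15, against -1.44 and -1.27. WRKY10 went the other way, with -3.38 on replicate 1, against -2.34 and -1.80. NPR1, the salicylate receptor gene, had -2.08, against -2.01 and -1.53, and WRKY45 had -0.01, against -0.43 and 0.45. NCED3, which makes a precursor of abscisic acid, had 1.86 on replicate 1, against 0.30 and 0.27. The cold-response factor DREB1C had -3.63 on replicate 1, against -6.54 and -4.30, so replicate 2 was the array apart there.

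The widest gaps on replicate 1 belong to loci with no description in the files. Os03g0738600 had 1.81 on replicate 1, against -4.54 and -3.89, a 65.0-fold higher signal. Os05g0438300 had -1.98 on replicate 1, against -6.56 and -7.44. In the other direction Os07g0600000 had -7.55 on replicate 1, against -0.25 and -0.28. It was not well above background there and was at least 63.9-fold lower. Os08g0108300 had -7.62 on replicate 1, against -1.78 and -1.0, at least 29.3-fold lower. On both of these loci, dim on replicate 1 only, replicates 2 and 3 lay within 1 unit of each other.

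Replicate 3 was marked by higher phytoalexin genes. All 13 phytoalexin genes that passed the filter, of 15 listed, had a positive difference, 7 of them were apart and none was lower, against 1.84% of all loci higher. The median was 1.53, and 0.45 under normexp background correction. The momilactone genes lie together on chromosome 4, and the phytocassane genes on chromosome 2. CYP99A3, a cytochrome P450 of momilactone synthesis, had -1.58 on replicate 3, against -5.36 and -4.46 on replicates 1 and 2. CYP99A2 had -3.89 on replicate 3, against -7.29 and -7.14. MAS2, a momilactone A synthase gene, had -4.42 on replicate 3, against -7.80 and -7.23. None of these 3 was well above background on replicate 1. MAS had -3.52 on replicate 3, against -4.82 and -5.93, and CPS4, the cyclase at the start of the pathway, had -3.50, against -4.67 and -5.53. Replicates 1 and 2 exchanged order within the pathway, while replicate 3 stayed highest.

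Among phytocassane genes, the cytochrome P450 gene CYP76M7 had -1.77 on replicate 3, against -4.73 and -3.79. CYP76M8 was the other one apart. KSL7, CPS2 and CYP71Z7 were highest on replicate 3 too, but there replicate 2 was the array apart, on the low side. KSL7 had -2.44 on replicate 3, against -3.08 and -4.26. NOMT, which makes the flavonoid sakuranetin, did not share the pattern, with -1.35 on replicate 3, against -3.52 and -1.01. It was lower on replicate 1.

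The pathogenesis-related genes were highest on replicate 3 on all 11, with a median difference of 1.5. Against replicate 2 alone the median was 0.59. Among them 2 were apart and higher on replicate 3, against 1.84% of all loci. RSOsPR10, a root-type PR10 gene, had 1.77 on replicate 3, against -0.08 and 0.35. PR1b, named after its value was seen, had 1.33 on replicate 3, against 0.03 and -0.05. Cht1 had 3.2 on replicate 3, against -0.32 and 2.2, where replicate 1 was the array apart. Of other regulators, WRKY71 had 0.32 on replicate 3, against -0.88 and -0.94. LEA3, which encodes a protein of drying cells, had 3.5 on replicate 3, against 2.37 and 1.58. DMAS1, an enzyme of phytosiderophore synthesis, had -3.26 on replicate 3, against -4.39 and -4.44. WSI18, also induced by water stress, went the other way with -1.99 on replicate 3, against -0.67 and -0.98. On 12 of 16 jasmonate genes the replicate 3 difference was positive, with a median of 0.38 and none apart and higher. The lipoxygenase gene Os12g0559200 had -0.40 on replicate 3, against 0.70 and 0.79. It was the only 1 of 16 apart, against 0.591% of all loci lower.

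Class I KNOX genes were the reverse case, low on replicate 3. All 4 measured genes were apart and lower, against 0.591% of all loci. OSH1 had -5.32 on replicate 3, against -1.43 and -0.47 on replicates 1 and 2, a 20.7-fold lower signal. OSH15 had -9.11 on replicate 3, against -3.44 and -1.30. It was not well above background on replicate 3 and was at least 40.0-fold lower there. OSH71 had -5.84 on replicate 3, against -3.29 and -1.86, a 9.64-fold lower signal. OSH43 had -6.54 on replicate 3, against -4.54 and -4.87, a 3.55-fold lower signal. OSH6 did not pass the filter, since it was well above background on replicate 2 alone. Its brighter probe had -9.20 on replicate 3, against -5.67 and -3.07. Over the 5 loci, replicate 3 was lowest on 14 of 14 probes. Well above background were 4 of the 14 probes on replicate 3, 10 on replicate 1 and 14 on replicate 2. Over all spots that share was 81.2% on replicate 3, 72.3% on replicate 1 and 85.5% on replicate 2.

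A mixed list of genes of other roles at the shoot apex, chosen after values had been seen, did not share this pattern as a set. Besides the genes named below it held DL, ROC1, FON1, PLA1, YAB3 and TOB1. Some members were bright on every array. DL had 4.6 on replicate 3, against 5.29 and 3.79, and ROC1 had 1.38, against 2.15 and 1.62. Whether the listed genes are normally silent in a leaf blade was not tested, so their median need not hold for apex genes in general. The replicate 3 difference was negative on 6 of the 10 measured, with a median of -0.12, against -0.01 over all loci. Replicate 3 was lower on 1 of the 10 and higher on none, against 0.591% and 1.84% of all loci. The 1 was GA2ox1, which inactivates gibberellin near the apex, with -6.24 on replicate 3, against -5.13 and -4.82. LOG, which activates cytokinin, had 1.33 on replicate 3, against 0.90 and 1.14. The homeobox gene qSH1 had -0.83 on replicate 3, against -0.74 and -0.64. WOX4 had 0.99 on replicate 3, against 3.19 and 0.80, so it stood out on replicate 1. The growth regulators GRF1, GRF4, GRF6 and GIF1 had negative replicate 3 differences, from -1.09 to -0.34, and none of them was apart on replicate 3. With the KNOX genes they gave 4 of 8 apart and a list median of -1.46, which was -0.84 under normexp background correction and also under spike-in scaling.

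**Figure D5:**
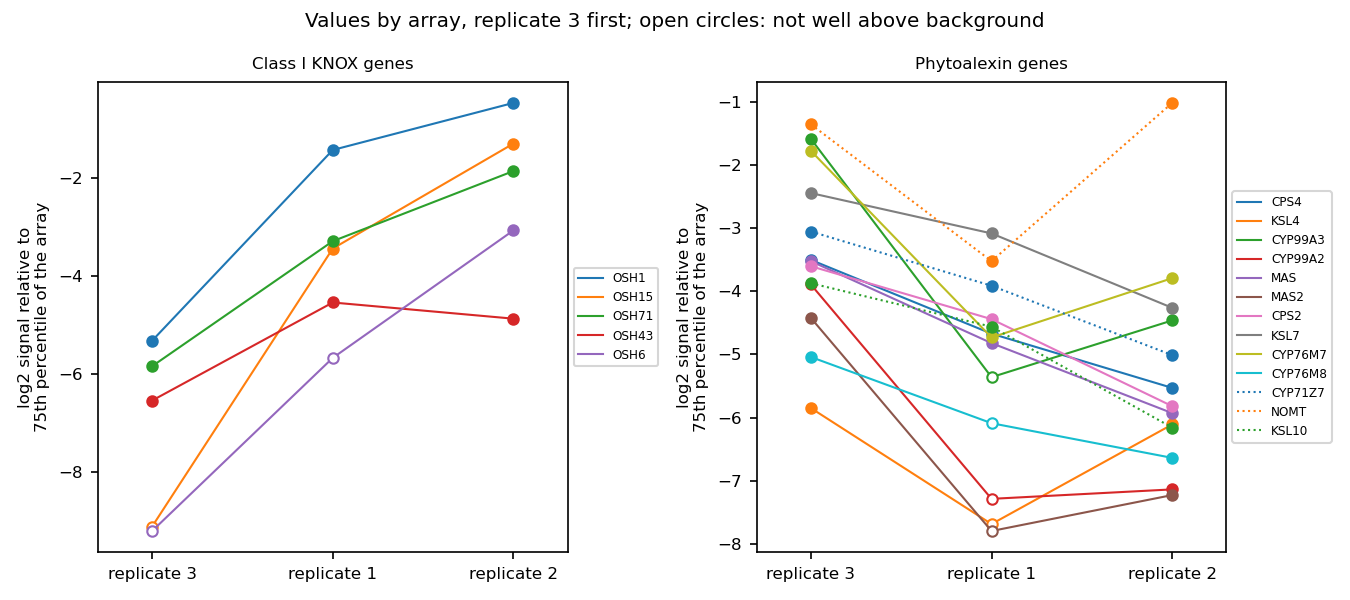
Log2 signal relative to the 75th percentile (y axis) is joined by gene across the 3 arrays, with replicate 3 on the left of each panel. Filled circles are well above background and open circles are not. The 5 class I KNOX genes (left, OSH6 by its brighter probe) lie lowest on replicate 3, and 12 of 13 phytoalexin genes (right) lie highest on it.

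Markers of other tissues were also read. The root gene RCc3 had -5.96 on replicate 3, against -4.50 and -1.88, and was highest on replicate 2. Its neighbour RCc2 was even, with 4.88 on replicate 3, against 4.70 and 4.60. The root peroxidase gene Os01g0327400 went the other way from RCc3, with 1.57 on replicate 3, against 0.03 and 0.85. Of the 3 anther genes, RTS and OSC6 did not pass the filter. The remaining one, C6, had -2.0 on replicate 3, against -3.73 and -2.64, and replicate 1 was apart and lower. Whether amounts of apex or sheath tissue differed between the pools was not tested.

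The widest gaps on replicate 3 were again at loci with no description in the files. Os07g0124900 had -0.45 on replicate 3, against -4.30 and -5.88, a 24.9-fold higher signal. Os07g0416900 had -3.96 on replicate 3, against -7.74 and -7.53. Os05g0531200 had -9.10 on replicate 3, against -2.07 and -0.80. It was not well above background there and was at least 76.6-fold lower. Os11g0190700 had -9.10 on replicate 3, against -1.56 and -3.12, at least 40.8-fold lower.

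The remaining lists gave few members apart on replicate 3. Over all loci 1.84% were higher and 0.591% lower there, so lists this small would hold few in any case. SPX3, of the phosphate list, had -4.77 on replicate 3, against -3.46 and -3.62. Nitrate assimilation genes had none of 12 apart on replicate 3, and NIA1 had 3.45 there, against 0.40 and 2.67. Cell division genes had a negative replicate 3 difference on all 12, with a median of -0.83, and none was apart. The photosystem genes had none of 24 apart on replicate 3, and their median was 0.35, which was -0.16 against replicate 2 alone. Chlorophyll breakdown genes were ordered replicate 3, 2, 1 on all 6 measured, with none apart on replicate 3.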

How the data were processed

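Leaf RNA was labelled with Cy3 and hybridised to one-colour Agilent rice arrays. Per the file headers, Agilent Feature Extraction 10.10.1.1 measured each spot, and the deposited processed signal is an intensity after background correction with no scaling across arrays. In the authors' deposited value table that intensity is multiplied by 1 constant per array (7.663, 1.613 and 2.692 for replicates 1 to 3). Controls and outlier-flagged spots were dropped, log2 was taken and the 75th percentile of the array subtracted. Spots of a probe were averaged, and a locus was read by its brightest probe. No spot was saturated. The 3 wild-type arrays were not used.

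The 3 pools and the 25 gene lists (277 loci) were chosen with earlier results of these data known. Named genes were, per list and array, up to 6 members with the largest difference, the linalool synthase locus, the 2 widest gaps each way, and up to 6 microRNA probes. Some others are marked in the text. A few more, such as NPR1, HDR, HDS, KSL7 and the Lhcb1 gene Os09g0346500, were named outside this rule. Locus names and roles are general knowledge: the reference table matched 0 loci. A bound sets the mean of the other two arrays against the probe's own signal or the lowest probe well above background, whichever is higher. Replicates were pools of plants, per the labels. The number of arrays limits the precision. The calling step was tested on simulated data. Python 3.11.15, pandas 2.3.3, numpy 2.4.6, matplotlib 3.10.9, R 4.3.3 and limma 3.58.1 were used.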

Additional observations from a re-analysis of the deposited data

How the results depend on the processing

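No paired analysis was possible because the comparison is among 3 arrays of 1 group and no result comes from a test. The planned normexp correction on mean signal was not run, since the files hold median signals, which were used instead. That setting, spike-in scaling and the restriction to probes tagged CDS plus 3′ UTR were chosen after seeing the data. Counts of loci with an array apart kept within 1.5 times under quantile normalization, outlier spots kept and the mean of a locus' probes. Counts from the authors' table did too, but that table differs from the processed signal by 1 constant per array. Subtracting a percentile of each array removes such a constant, so agreement there was nearly fixed in advance and says nothing about stability. For replicate 1, higher counts were 2460 with array median scaling, 4726 with no filter on dim probes, 112 at 4-fold, 2703 by the difference from the mean of the other two, 3661 with normexp, 2 with spike-in scaling and 985 with the 3′ tagged probes. Lower counts were 2135 with all 3 arrays well above background, 995 at 4-fold, 957 with normexp, 19156 with spike-in scaling and 2152 with the tagged probes. For replicate 3, higher counts were 263 with all 3 arrays above background, 50 at 4-fold, 2686 by the mean, 138 with normexp and 46 with spike-in scaling. Lower counts were 531 with no filter, 27 at 4-fold, 1093 by the mean, 38 with normexp and 30 with spike-in scaling. For replicate 2, higher counts were 72 with all 3 arrays above background, 303 with no filter, 28 at 4-fold, 1290 by the mean, 32 with normexp, 3245 with spike-in scaling and 84 with the tagged probes. Lower counts were 525, 30, 688, 6 and 101 with no filter, at 4-fold, by the mean, with spike-in scaling and with the tagged probes. The tagged probes cover 17048 loci, which by itself lowers a count. Leaving out 1 of the other two arrays, for 1 array against 1, gave 2088 to 3493 higher and 3905 to 4850 lower on replicate 1, 898 to 4850 higher and 389 to 3493 lower on replicate 3, and 389 to 3905 higher and 898 to 2088 lower on replicate 2. The higher end for replicate 3 is the fit without replicate 2. Of 700 list medians under alternatives, 608 moved by less than the spread of the other two arrays, 89 moved by more, and 3 of at least 1 unit reversed. Counting smaller medians, 44 of the 700 changed sign, 9 with spike-in scaling and 6 with normexp. The 4-fold limit and the difference from the mean change only the calls, so their 50 medians each could not move. For the same reason as its counts, the 50 medians of the authors' table were nearly fixed in advance. These medians say nothing about stability. The 3 reversals took anther and pollen markers to 0.71 on replicate 1 and -1.45 on replicate 3 with no filter, and growth regulators to -1.36 on replicate 1 with spike-in scaling. The cause was not tested. The shift of all loci on replicate 1 was 0.17 with array median scaling, 0.43 with normexp and -2.42 with spike-in scaling. Signal over background limits dim loci most on replicate 1, where 2747 kept loci were not well above it.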
